A study of Mus musculus with 4 samples.

Results

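The FGF ligand and receptor genes were followed in cells labelled as endothelium of the collecting lymphatic vessels that drained a flank tumour. The set comprised the 10 mouse genes Fgf1, Fgf2, Fgf7, Fgf10, Fgf18, Fgf21, Fgfr1, Fgfr2, Fgfr3 and Fgfrl1, of 18193 genes with a probe set of their own. They were picked by symbol, with Fgf18 leading because its difference between the groups was already known. They had 19 probe sets, and the probe set with the highest mean signal over the 4 arrays represented each gene. Both groups were mice bearing tumours of 293EBNA cells, a line derived from human embryonic kidney cells, grown to 2000 mm3. In the Apex group (2 arrays) the tumour cells carried the empty APEX vector, and in the VEGFD group (2 arrays) the vector contained VEGFD, the gene of a lymphatic growth factor. Vessels were found with the dye Patent Blue V and dissected, and endothelial cells were isolated by magnetic sorting. The sample titles name collecting lymphatic vessels, whereas the RNA extraction text speaks of lymph nodes as the cell source, and the groups follow the titles. The strain, age and sex of the mice, and whether a replicate was 1 mouse or a pool, are not stated in the sources used here. The p values therefore measure the spread between these arrays only. The comparison asks how vessel cells near a tumour that makes VEGF-D differ from those near a control tumour.

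Fibroblast growth factors are mostly secreted proteins that bind heparan sulfate on cell surfaces and activate receptor tyrosine kinases of the FGFR family. Signalling runs through the adaptor FRS2 to the RAS and ERK pathway, which in turn induces its own inhibitors, among them the Sprouty and DUSP genes. In vessels FGF2 is a classical angiogenic factor, and lymphatic endothelial cells are known to respond to FGF2 through FGFR1 and FGFR3. FGF7 and FGF10 are typically made by mesenchymal cells and act on epithelium through a splice form of FGFR2. FGFRL1 binds FGFs but lacks the tyrosine kinase domain of the other receptors.

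Signals are linear intensities without detection calls, listed with Apex replicates 1 and 2 first, followed by VEGFD replicates 1 and 2. A log2 change is the VEGFD mean minus the Apex mean of log2(signal + 16), a scale that understates the change of dim genes. Its error is the standard error (SE) from limma, with n = 2 and 2. Genes were tested where the mean signal reached 26.7, the median of all probe sets that were not controls. That left 11693 genes, with 8 of the 10 members among them. Fgf1, with a mean signal of 24.6, lay just below this filter and Fgf21, with 10.1, further below. The lowest mean among the tested members was that of Fgfr3, 44.4. Signals of different genes come from different probes and are not compared with each other.

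The cell label was checked against markers chosen from textbook knowledge. Of 12 pan-endothelial markers, 3 were above the filter signal on all 4 arrays (Egfl7, Eng and Kdr). Eng had signals of 417, 765, 829 and 271, and Kdr 78.8, 75.7, 90.8 and 55.4. Pecam1 (CD31) had signals of 2.92, 141, 3.25 and 2.22, and Cdh5 (VE-cadherin) 13.0, 146, 4.23 and 3.11. Of 10 lymphatic markers 9 were on the array, and 4 were above the filter signal on all arrays (Flt4, Nrp2, Pdpn and Thy1, the last also in the fibroblast list). Pdpn (podoplanin) had signals of 963, 1622, 1237 and 1715, while Prox1, which defines lymphatic identity, had 11.2, 11.6, 3.19 and 5.94. Of 12 fibroblast markers, 10 were above the filter signal on all arrays. Pecam1 and Cdh5 thus lay below the filter signal on 3 of the 4 arrays and Prox1 on all 4. Other markers of the same lists lay above it on all 4 arrays, and the groups are named by their labels.

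In the main fit, Fgf18 and Fgfrl1 were the tested members furthest apart between the groups. The 250 bases upstream of their annotated starts show the promoters of these genes, the highest and the lowest among the tested members. Sequences are from RefSeq, build GRCm38.p6, on the strand of the gene, and capitals mark matches to the motifs searched. The windows are chr11:33147401-33147650 on the minus strand for Fgf18 and chr5:108693979-108694228 on the plus strand for Fgfrl1.
Fgf18: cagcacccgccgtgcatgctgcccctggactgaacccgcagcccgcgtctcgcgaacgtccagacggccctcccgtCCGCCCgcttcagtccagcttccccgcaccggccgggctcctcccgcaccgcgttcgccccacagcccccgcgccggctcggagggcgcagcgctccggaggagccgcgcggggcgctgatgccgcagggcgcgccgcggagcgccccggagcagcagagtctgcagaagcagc
Fgfrl1: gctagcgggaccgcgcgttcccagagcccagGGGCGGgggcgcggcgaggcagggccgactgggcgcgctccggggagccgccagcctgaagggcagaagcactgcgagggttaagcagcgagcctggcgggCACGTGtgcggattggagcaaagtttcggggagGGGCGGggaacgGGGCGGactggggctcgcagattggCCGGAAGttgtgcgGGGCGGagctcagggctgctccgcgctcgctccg

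Both windows were rich in GC, at 77.2% for Fgf18 and 73.6% for Fgfrl1, against a median of 52.4% over 32851 promoter windows of the same length. They held 37 and 30 CpG pairs, against a median of 6.0. Motifs were searched on both strands, and no matches of different motifs overlapped. The GC box (GGGCGG), present in 32.7% of all windows, matched at 1 place upstream of Fgf18 and at 4 places upstream of Fgfrl1. The Fgfrl1 window also held 1 E-box (CACGTG, in 6.02% of windows) and 1 ETS motif (CCGGAAG, in 6.91%), and the Fgf18 window held no match to either. Neither window matched the TATA box (TATAAA, 12.4%), the TCF/LEF motif (CTTTGAT, 3.21%) or the AP-1 motif (TGANTCA, 6.75%). These matches describe the letters of the windows, and no binding was measured.

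Among the ligands, Fgf18 and Fgf2 had more signal on both VEGFD arrays than on either Apex array, whereas Fgf10 had less. Among the receptors, Fgfrl1 had less signal on both VEGFD arrays by each of its probe sets. The main signals of Fgfr1 and Fgfr3 were nearly level over the 4 arrays. No member passed an adjusted p of 0.05 in the limma fit, where 0% of all 11693 genes passed. Leaving Fgf18 out, since it was chosen for its difference, Fgf2 and Fgfrl1 were at an unadjusted p under 0.05, beside 673 genes or 5.76% of all. The groups did not overlap for 5 of the 8, beside 38.5% of all tested genes. Of these 5, 2 were higher in VEGFD (16.6% of all) and 3 lower (21.9%). At least 2-fold apart as well were 2 of the 8, beside 4.13% of all, with Fgf18 higher (1.12%) and Fgfrl1 lower (3.01%). Over all genes this was 131 higher and 352 lower, but 197 and 262 with arrays centred on their medians. Fgf2 joined these members with that centring, with quantile normalization or with a pseudocount of 1, making 3. The members were chosen with Fgf18 known to differ, so these counts are a description. An exact permutation test of 2 arrays against 2 cannot go below p = 0.333.

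**Figure D1:**
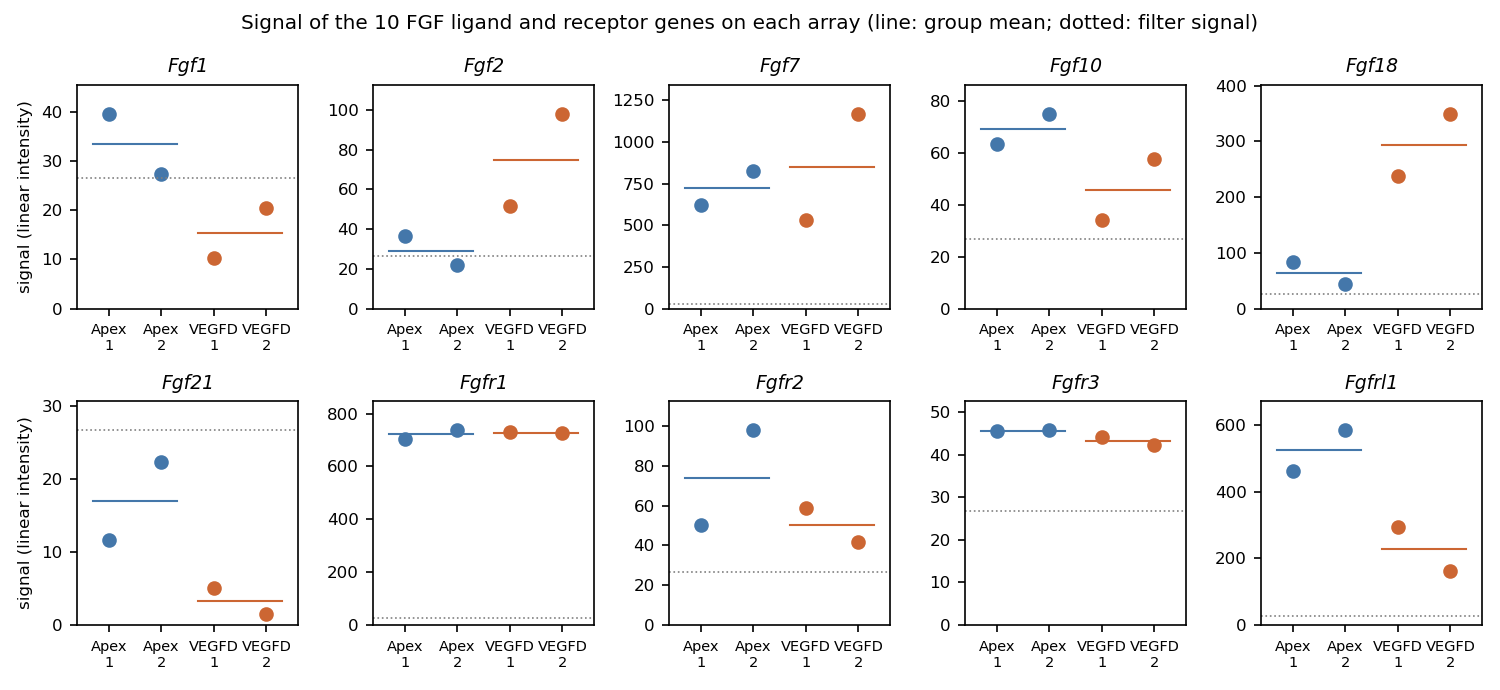
Signal (linear intensity, vertical axis from 0, own scale per gene) of the representative probe set of each of the 10 genes on the 4 arrays, with Apex in blue and VEGFD in orange. Lines are group means of 2 arrays and the dotted line is the filter signal of 26.7. Fgf18 lay between 43.8 and 83.0 on Apex arrays and between 237 and 350 on VEGFD arrays, whereas Fgfr1 lay between 706 and 737 on all 4.

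FGF18, a secreted ligand that favours FGFR3 and acts in bone, cartilage and lung growth, was measured by a single probe set. Its signals were 83.0, 43.8, 237 and 350. Both VEGFD arrays were above both Apex arrays, and the lower VEGFD signal was 2.86 times the higher Apex signal. The mean signal was 4.63 times as high in the VEGFD group, and the log2 change was 1.98 ± 0.36 (SE). No test is given for it, because Fgf18 was chosen for this difference. Leaving out Apex replicate 2 gave a log2 change of 1.62 and leaving out Apex replicate 1 gave 2.35 while a pseudocount of 64 gave 1.49.

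FGF2, a heparin-binding ligand that stimulates endothelial growth and lacks a classical secretion signal, also had a single probe set. Its signals were 36.3, 22.0, 51.8 and 98.0. The VEGFD arrays were again the higher pair, with the lower VEGFD signal 1.42 times the higher Apex signal, and Apex replicate 2 lay below the filter signal. The log2 change was 0.98 ± 0.38 (SE), with an adjusted p of 0.822 in limma. It was 0.60 without VEGFD replicate 2 and 0.56 with a pseudocount of 64, so its size depended on that array and on the pseudocount.

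FGF7, also called keratinocyte growth factor, is a stromal ligand for epithelial cells. Its brighter probe set had signals of 621, 828, 533 and 1169. VEGFD replicate 2 was the highest array and VEGFD replicate 1 the lowest, so the groups overlapped. The log2 change of 0.14 ± 0.42 (SE; limma adjusted p = 0.950) was -0.42 without VEGFD replicate 2, 0.69 without VEGFD replicate 1 and -0.066 without Apex replicate 1. In the dimmer probe set the signals were 208, 249, 260 and 581, and the log2 change 0.74. There the groups did not overlap, with the lower VEGFD signal 1.05 times the higher Apex signal. The dimmer probe set too was highest in VEGFD replicate 2, by 2.23 times over VEGFD replicate 1, against 2.20 times for the brighter one. With the probe sets averaged the change was 0.44.

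FGF10, the second mesenchymal ligand of the set, is needed for limb and lung budding. Its signals were 63.5, 75.03, 34.0 and 57.4, with both VEGFD arrays below both Apex arrays by a small gap. The log2 change was -0.49 ± 0.31 (SE), with an adjusted p of 0.825 in limma and a 95% interval from -1.28 to 0.30. Without VEGFD replicate 1 it was -0.21, without VEGFD replicate 2 -0.77, and with a pseudocount of 64 -0.29.

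The remaining ligands were dim. FGF1, which binds all FGF receptors, had signals of 39.7, 27.5, 10.4 and 20.6 in its brightest probe set. The Apex arrays were above the filter signal and the VEGFD arrays below it, with a log2 change of -0.66 that was -0.30 with a pseudocount of 64. Its second probe set, at 38.4, 20.9, 7.08 and 16.4, had the same sign (-0.71), and its dimmest was at 0.14. Fgf21, which encodes a hormone-like ligand that needs the co-receptor beta-Klotho, had signals of 11.6, 22.4, 5.10 and 1.52, all below the filter signal. Neither gene entered the test in the main fit.

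**Figure D2:**
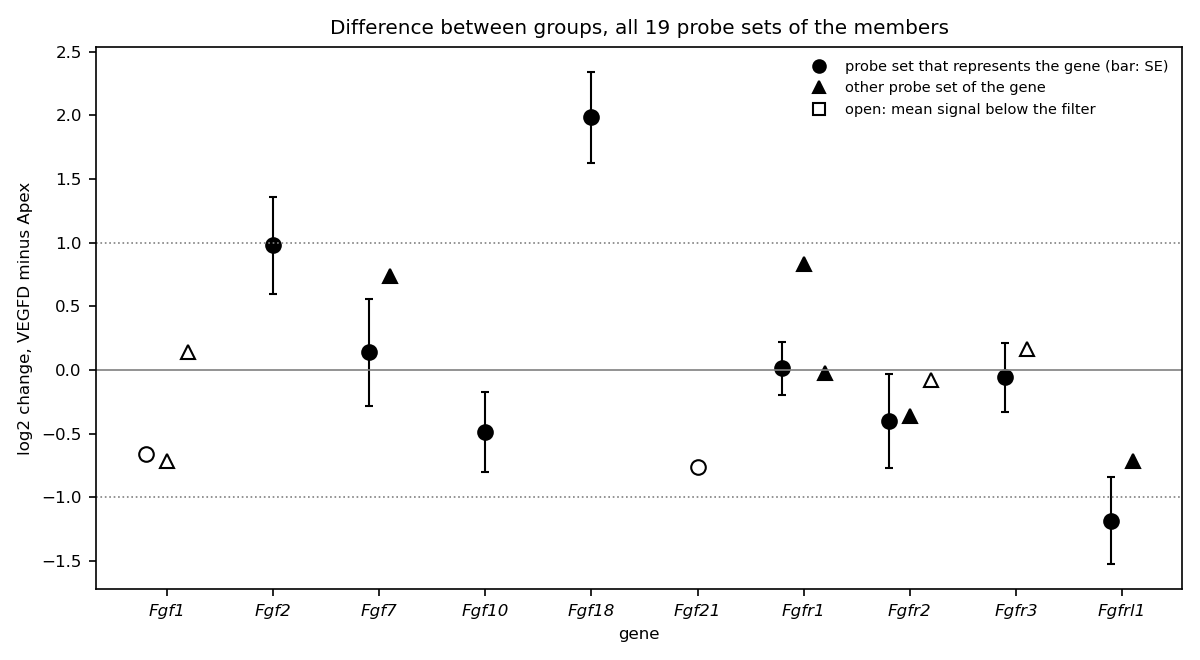
Log2 change, VEGFD minus Apex (vertical axis), for all 19 probe sets of the 10 genes (horizontal axis). Circles are the representative probe sets with the SE of the limma fit, triangles the other probe sets, and open symbols have a mean signal below the filter. Both Fgfrl1 probe sets lay below 0 (-1.19 and -0.71), whereas those of Fgfr1 ran from -0.025 to 0.83.

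FGFRL1 binds ligand without a kinase domain of its own and is often described as a decoy. Its brighter probe set had signals of 463, 584, 295 and 163. Both VEGFD arrays were below both Apex arrays, with VEGFD replicate 2 the lowest, and the mean signal of the VEGFD group was 0.437 times that of the Apex group. The log2 change was -1.19 ± 0.34 (SE), with an adjusted p of 0.822 in limma. Its other probe set had signals of 177, 203, 129 and 92.9, with the arrays in the same order, and a log2 change of -0.71. With the probe sets averaged the change was -0.95. Without VEGFD replicate 1 the change was -1.59 and passed the threshold (limma adjusted p = 0.0326), a fit that holds no variation between VEGFD arrays and in which 369 genes passed. Without VEGFD replicate 2 it was -0.78 (adjusted p = 0.575).

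FGFR1, the receptor most widely expressed in mesenchymal and endothelial cells, was nearly level in its brightest probe set, with signals of 706, 737, 729 and 727. The highest array was 1.04 times the lowest. The log2 change was 0.012 ± 0.21 (SE; limma adjusted p = 0.989), with a 95% interval from -0.52 to 0.54. A second probe set, at 374, 228, 539 and 526, differed from this. There both VEGFD arrays were above both Apex arrays, and the log2 change was 0.83. In the dimmest of the 3, with 78.7, 99.0, 105 and 70.9, the change was -0.025. With all 3 averaged the change was 0.27. Which transcripts each probe set reads is not stated in the sources used here.

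FGFR3, a receptor that Prox1 is known to induce in lymphatic endothelium, had signals of 45.6, 45.7, 44.1 and 42.2. These were also close together, with the highest array 1.08 times the lowest, although the VEGFD pair lay just below the Apex pair. The log2 change was -0.060 ± 0.27 (SE; limma adjusted p = 0.968), with a 95% interval from -0.74 to 0.62. It was 0.063 with arrays centred on their medians and 0.049 after quantile normalization, so it had no stable direction. Its other probe set was below the filter signal on every array.

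FGFR2, whose splice forms serve epithelial or mesenchymal cells, had signals of 50.2, 98.0, 59.0 and 41.7. Apex replicate 2 was the highest array and the groups overlapped. The log2 change was -0.40 ± 0.37 (SE; limma adjusted p = 0.839), and -0.0092 without Apex replicate 2, so the difference rested on that array. The second probe set had 35.4, 29.4, 10.4 and 37.5, with VEGFD replicate 1 the lowest, and the remaining one was below the filter signal on every array.

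**Figure D3:**
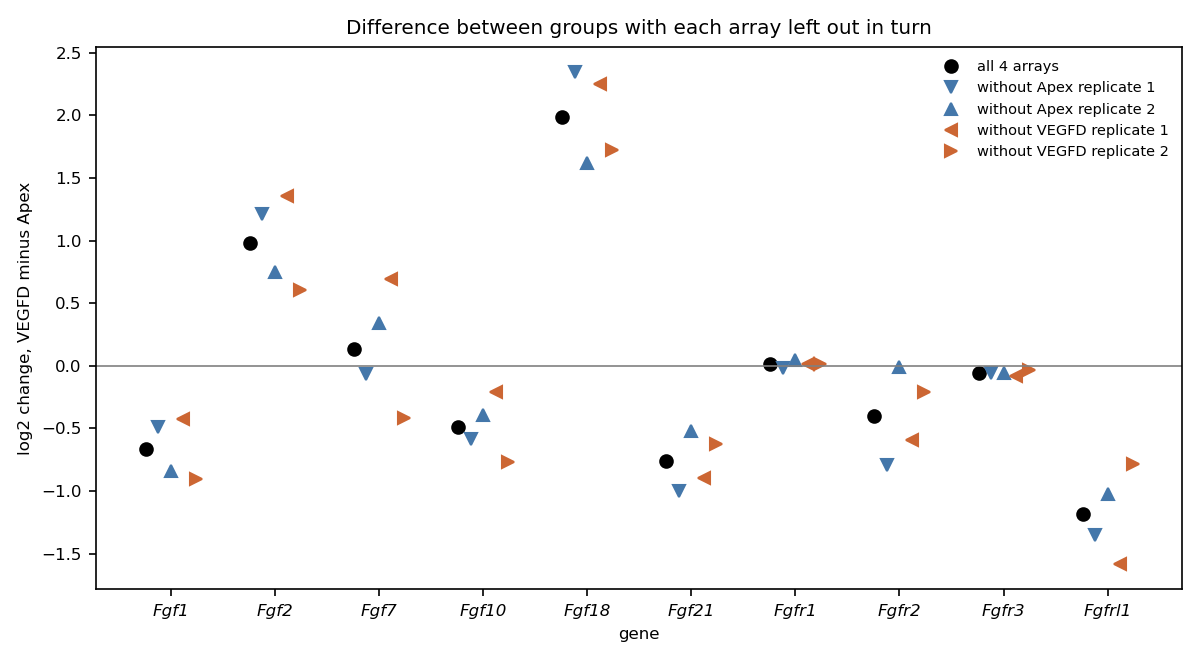
Log2 change, VEGFD minus Apex (vertical axis), of the 10 genes with all 4 arrays (black) and with each Apex array (blue) or VEGFD array (orange) left out. The values of Fgf18 stayed between 1.62 and 2.35 and those of Fgfrl1 between -1.59 and -0.78, whereas those of Fgf7 ran from -0.42 to 0.69.

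Over the 8 tested members, 4 had a positive and 4 a negative log2 change, with a median of -0.024 beside -0.036 over all tested genes. By role, 3 of 4 tested ligands were positive (median 0.56) and 3 of 4 receptors negative (median -0.23). The ligands below the filter, Fgf1 (-0.66) and Fgf21 (-0.76), were both negative, so that of all 6 ligands 3 were positive and 3 negative, and with no filter the median of the 10 members was -0.23. The adjusted p values of the tested members other than Fgf18 ran from 0.822 to 0.989 in limma. In all, 46.3% of tested genes had a positive change, or 59.1% with arrays centred on their medians, which moved the median of all genes from -0.036 to 0.087. Under that centring Fgf18 was at 2.11, Fgf2 at 1.10 and Fgfrl1 at -1.06.

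Summed signals did not overlap between the groups for the adipocyte, smooth muscle and pericyte, blood endothelial and epithelial marker lists. The counts of single markers cover all markers on the array, including those below the filter. The shares of genes without overlap, 16.6% higher and 21.9% lower, cover tested genes only. Counted without overlap though below the filter were the higher Cldn4 and Esrp1 (epithelial), Reln (lymphatic) and Lum (fibroblast). The lower ones below it were Prox1 (lymphatic), Pi16 (fibroblast) and Cldn5 (pan-endothelial). Adipocyte markers (7 of 9 listed on the array) summed to 6394 and 8120 on Apex arrays and to 3856 and 3136 on VEGFD arrays, with 5 of the 7 lower without overlap. Smooth muscle and pericyte markers (10 genes) summed to 7753 and 9110 against 9476 and 18617, with 3 higher and 3 lower without overlap. Such linear sums follow their brightest genes. Acta2 had 3525, 4096, 4840 and 8802, and Tagln 454, 746, 1632 and 5553. Pdgfrb, lower without overlap, had 2978, 3479, 2123 and 1268. Blood endothelial markers (8 genes) summed to 1150 and 1929 against 547 and 843, with 1 higher and 2 lower without overlap. Epithelial markers (10 genes) summed to 719 and 989 against 684 and 261, with 2 higher and 3 lower without overlap. Fibroblast markers (12 genes) overlapped, at 28676 and 24255 against 28968 and 28412, with 2 higher and 2 lower without overlap. One of the lower was Dpt, the dermatopontin gene, at 2725, 2407, 204 and 168, whose log2 change was -3.68 (limma adjusted p = 0.123). Pan-endothelial markers (12 genes) overlapped too, at 773 and 4406 against 1207 and 490, with 2 lower without overlap. Lymphatic markers (9 genes) overlapped as well, at 2637 and 3481 against 2604 and 4199, with 1 higher and 2 lower without overlap. In such bulk RNA fewer cells of a type and less RNA per cell cannot be told apart, and the part of these markers in the FGF differences was not tested.

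The genes whose pattern over the 4 arrays lay closest to Fgf18, by Euclidean distance of centred log2 values, were Htr1b, Ncam1, Lhx8, Hoxc4 and Cnnm4. Their distances were 0.38, 0.48, 0.52, 0.54 and 0.56 on the log2 scale. Htr1b, a serotonin receptor gene, had signals of 140, 102, 331 and 599, but in its other probe set they were 86.0, 85.0, 74.1 and 73.8. Hoxc4, a positional transcription factor gene, had 39.6, 29.4, 102 and 165. Lhx8, a developmental transcription factor gene, had 26.8, 1.94, 60.2 and 82.4, with Apex replicate 2 below the filter signal. Cnnm4 was below it on both Apex arrays, and the other 2 probe sets of Cnnm4 had changes of 0.18 and -0.78. Lhx8 and Cnnm4 reached the filter, a mean over all 4 arrays, only through their VEGFD signals. Their likeness to Fgf18 was thus in part set by the filter. Among the members Fgf2 was closest to Fgf18, at a distance of 1.04 and rank 71 of 11692 genes, and Fgfrl1 farthest, at 3.39. All these distances rest on the same 4 arrays.

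The list of other FGF ligands was mostly dim. Of 16 ligands, 12 lay below the filter. The 4 tested ones ran from -0.42 for Fgf13, an intracellular FGF homologue, to 0.16 for Fgf4, an early embryonic ligand, and 0 passed. The remaining named ligands were Fgf3 (0.074) and Fgf9 (-0.061). Of the tested ones, the groups did not overlap for Fgf4 alone (25%, beside 38.5% of all tested genes). Fgf4 had signals of 45.2, 43.2, 53.1 and 49.6, and its other probe sets were below the filter signal on every array.

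Of 10 further receptors and co-receptors, 7 were tested, with 3 positive and 4 negative changes, 0 passed, and a median of -0.29. That median had no stable sign, at 0.29 with the stricter filter, 0.088 with averaged probe sets and 0.0056 without Apex replicate 1. The groups did not overlap for 2 higher and 2 lower genes, 57.1% of those tested beside 38.5% of all tested genes. At least 2-fold apart as well was 1 gene (14.3%, beside 4.13% of all). This was Ncam1, a neural cell adhesion gene whose product can bind FGF receptors. Its signals were 689, 318, 1279 and 1646, a log2 change of 1.60 ± 0.41 (SE; limma adjusted p = 0.822). The change was 1.06 when Apex replicate 2 was left out and 2.14 when Apex replicate 1 was. Its next 3 brightest probe sets had changes of 1.94, 2.11 and 1.04, and its 3 dimmest 0.20, 0.24 and -0.021. Fgfbp3, which encodes an FGF carrier protein, was at 0.32. Fgfr4 (-0.62) and Flrt2 (-0.47), a leucine-rich membrane protein gene, had the lowest values. Fgfr4 was -0.31 without VEGFD replicate 2 and Flrt2 -0.11 without Apex replicate 2, and the other Flrt2 probe sets above the filter were at -0.17 and -0.020. The other Fgfr4 probe sets lay below the filter.

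Among 22 tested genes of heparan sulfate synthesis and editing, 10 had positive and 12 negative changes, 0 passed, and the median was -0.045. The groups were 2-fold apart without overlap for 4 of the 22, or 18.2%, beside 4.13% of all tested genes. With arrays centred, a pseudocount of 64 or averaged probe sets this held for 2, Sulf1 and Hs6st2 (Sulf2 was at -0.88 and Gpc6 at -0.98 with arrays centred), and with 1 array left out for 2 to 6. Sulf1 and Sulf2 encode sulfatases that remove 6-O-sulfate from heparan sulfate at the cell surface, and they differed in opposite directions. The signals of Sulf1 were 341, 166, 871 and 723, and its log2 change was 1.67 ± 0.38 (SE; limma adjusted p = 0.784), with 2.34 in the second probe set. Sulf2 had signals of 1988, 2685, 1337 and 978, so that its log2 change was -1.005 ± 0.28 (SE; adjusted p = 0.822), with -1.02 in its second probe set and 0.22 in the dimmest.

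Hs6st2, which encodes an enzyme that adds 6-O-sulfate, had signals of 1164, 313, 2232 and 1558. The groups did not overlap, Apex replicate 2 was the lowest array, and the log2 change was 1.59 ± 0.62 (SE; limma adjusted p = 0.822). The change was 0.67 when Apex replicate 2 was left out and 2.51 when Apex replicate 1 was. Gpc6, a heparan sulfate carrying glypican gene, gave 496, 365, 298 and 118, a log2 change of -1.11 ± 0.45 (SE; limma adjusted p = 0.822). Leaving out VEGFD replicate 1 gave -1.72, past the threshold at a limma adjusted p of 0.0319, in the fit with a single VEGFD array in which 369 genes passed. Leaving out VEGFD replicate 2 gave -0.49 (adjusted p = 0.795). Its other 4 probe sets were negative too, from -1.39 to -0.45.

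**Figure D4:**
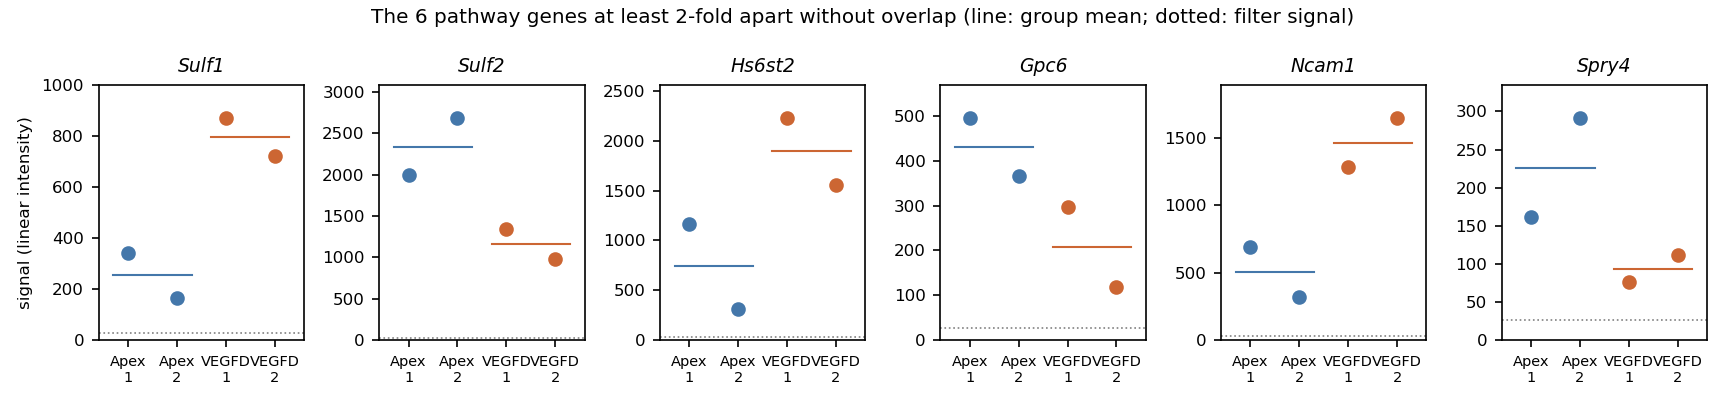
Signal (linear intensity, vertical axis from 0, own scale per gene) of Sulf1, Sulf2, Hs6st2, Gpc6, Ncam1 and Spry4 on the 4 arrays, with Apex in blue and VEGFD in orange. Lines are group means of 2 arrays and the dotted line is the filter signal. Sulf1 lay between 166 and 341 on Apex arrays and between 723 and 871 on VEGFD arrays, and Sulf2 had the opposite order.

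Of 20 tested adaptor and signalling genes, 11 had positive and 9 negative changes, 0 passed, and the median was 0.019. The groups did not overlap for 40% of them, beside 38.5% of all tested genes. The largest values were those of Cbl, a ubiquitin ligase gene for activated receptors (0.73 ± 0.36), and Map2k1, which encodes the kinase MEK1 (0.43 ± 0.27). Map2k1 was 0.16 without VEGFD replicate 1, and Cbl was 0.32 without Apex replicate 2. The lowest were Pik3r1, a regulatory subunit gene of PI3-kinase (-0.93 ± 0.32), and Frs3, an FGF receptor adaptor gene (-0.67 ± 0.37). For Frs3, leaving out VEGFD replicate 2 gave -0.29, and leaving out VEGFD replicate 1 gave -1.06. No representative probe set of this list was 2-fold apart with all 4 arrays. The second probe sets of Pik3r1 (-1.19) and Cbl (1.26) were, without overlap, and Pik3r1 was at -1.26 without Apex replicate 1 and at -1.13 without VEGFD replicate 1.

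Target and feedback genes of FGF and ERK signalling had 13 positive and 6 negative changes among 19 tested, 0 passed, and the median was 0.17, or -0.036 without VEGFD replicate 2. The groups did not overlap for 3 higher and 3 lower genes, 31.6% of the list beside 38.5% of all tested genes. Dusp5, an ERK phosphatase gene, had signals of 61.8, 117, 66.9 and 1016, and Dusp4, a related phosphatase gene, 476, 400, 464 and 1795. In both VEGFD replicate 2 alone was high. Their log2 changes of 1.53 ± 1.16 and 1.04 ± 0.63 (SE) were -0.29 and 0.085 without that array. Without VEGFD replicate 1, which left VEGFD replicate 2 as the only VEGFD array, they were 3.34 and 2.0004.

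Spry4, a Sprouty inhibitor gene, went the other way, at 161, 292, 75.6 and 111, with a log2 change of -1.11 ± 0.36 (SE; limma adjusted p = 0.822). Spry4 was the 1 gene of the list 2-fold apart without overlap (5.26%, beside 4.13% of all tested genes). Its change was -0.71 without Apex replicate 2 and -0.87 without VEGFD replicate 1. With arrays centred it was -0.99, with a pseudocount of 64 -0.85 and with averaged probe sets -0.50, each below 2-fold. Its second probe set was at -0.81, and its other 2 had mean signals below the filter. Egr1, an immediate early transcription factor gene, was at -0.58 ± 0.41, and at -0.034 without VEGFD replicate 1 and -1.12 without VEGFD replicate 2. Of the 19 target genes, 9 (47.4%) had their highest signal in VEGFD replicate 2, beside 29.6% of all tested genes, a count made after the values were seen. Among the 8 tested members 3 did so, Fgf2, Fgf7 and Fgf18. The other 5 were highest in Apex replicate 2, as were 29.9% of all tested genes. These 5 included Fgfr1 and Fgfr3, whose signals were nearly level.

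**Figure D5:**
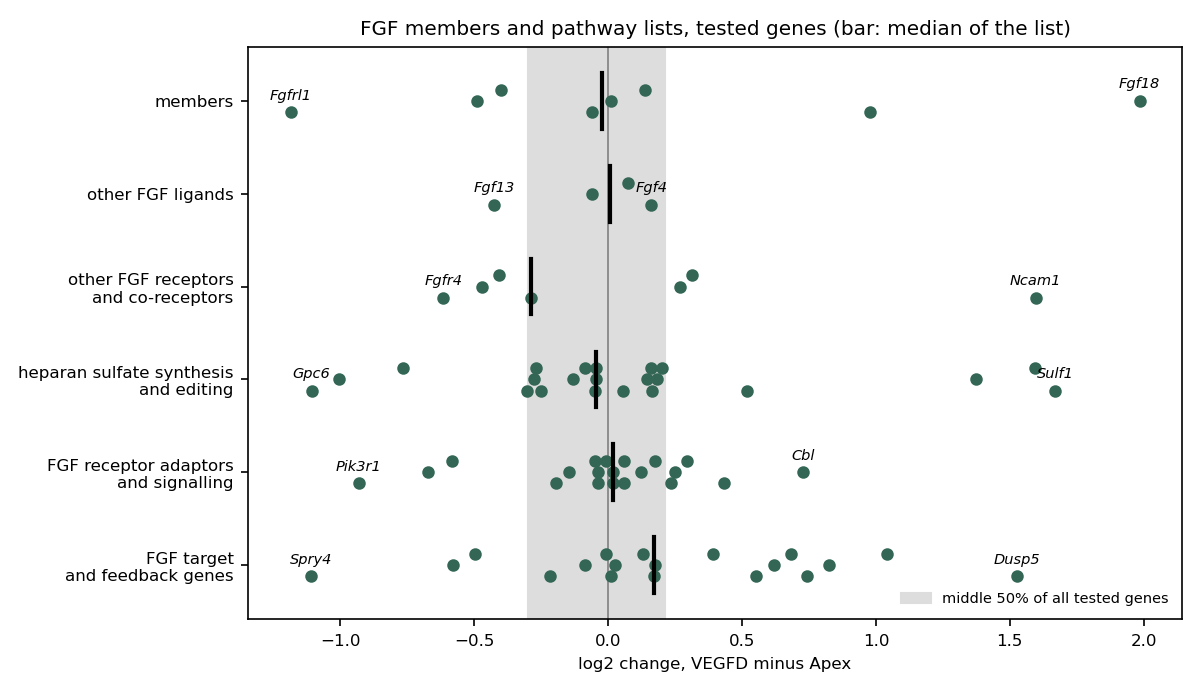
Log2 change, VEGFD minus Apex (horizontal axis), of the tested genes among the 8 members and in 5 pathway lists (vertical axis). Points are genes, black bars list medians, and the grey band the middle 50% of all tested genes. The list medians lay between -0.29 and 0.17, and Fgf18 at 1.98 was the highest point shown.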

How the data were processed

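RNA was measured on 4 one-colour Affymetrix mouse arrays. Per the labels' protocols, biotin was incorporated by the Affymetrix one-cycle kit. The authors deposited a linear intensity for each probe set. Without the top and bottom 2% of probe sets, every array averaged 150, as found from the values. The software that made them is not stated in the sources used here. Precision is limited by the number of arrays.

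Of 45101 probe sets, 64 were controls, and the platform annotation gave 34945 a single gene symbol, 932 several (not used) and 9160 none. All 10 member symbols were found in the GRCm38.p6 gene table. The fit was limma 3.58.1 in R 4.3.3 (lmFit, eBayes with an intensity trend) on log2(signal + 16), two-sided, over 11693 genes adjusted by Benjamini-Hochberg, threshold 0.05. The fit was also run on simulated independent arrays with known changes, a check of the code and not of the changes reported here. The members, pathway lists and markers were chosen with earlier results of these data known. All members were named, and from each pathway list the 2 highest and 2 lowest tested genes. The 5 genes nearest to Fgf18 were named without a test. Genes counted as 2-fold apart also had no overlap between groups. Alternatives covered the pseudocount, the filter, the scaling, averaged probe sets, the trend, a replicate block and leaving out each array.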

Additional observations from a re-analysis of the deposited data

How the results depend on the processing

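The number of genes past the threshold, 0 in the limma fit (673 at an unadjusted p under 0.05), was also 0 with other pseudocounts, filters, scalings, averaged probe sets or no trend. It was 6 with the replicate number as a block, none of them an FGF member, and ran from 0 to 369 with 1 array left out (369 if that was VEGFD replicate 1 and 4 if VEGFD replicate 2). The labels do not say that equal numbers pair arrays, and the deviations of same-numbered arrays correlated at 0.19 over genes. The block changed no call of a member or named gene. The genes 2-fold apart without overlap, 483 in all, were 231 with a pseudocount of 64 and 256 with a stricter filter, and 461 to 1393 with 1 array left out. The FGF members among them, 2 in all, were 1 with averaged probe sets (Fgf18) and 1 to 3 with 1 array left out (1 without VEGFD replicate 2, again Fgf18). The members without overlap, 5 in all, were 2 with the stricter filter, which tested fewer genes, and 6 to 7 with 1 array left out, where no overlap is easier to meet. With other settings, Fgfr1 was -0.0089 after quantile normalization, Fgfr3 was 0.063 with arrays centred and 0.049 after quantile normalization, Fgf9 was 0.062 and 0.059 in the same order, and Fgf3 was -0.25 with a pseudocount of 1. With 1 array left out, Fgf7 ran from -0.42 to 0.69, Fgfr1 from -0.018 to 0.043, Fgf3 from -0.94 to 1.09, Fgf9 from -0.15 to 0.032, Fgf13 from -0.96 to 0.12 and Dusp5 from -0.29 to 3.34. Of 125 alternative values of members, 6 had the opposite sign, and of 251 of the named pathway genes, 8. The cause of these differences was not tested. Signals below the filter signal have no stated background.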

Other observations

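In the list of other FGF ligands, Fgf5, Fgf6, Fgf8, Fgf11, Fgf16 and Fgf20 lay below the filter with VEGFD signals below their Apex signals. The groups overlapped for the rest below the filter, with positive changes for Fgf14 (0.24), Fgf15 (0.49) and Fgf17 (0.0037). The median signal of all probe sets that were not controls was 27.0, 30.4, 26.3 and 23.8 on the 4 arrays. The share without overlap over all genes below the filter was not counted. Fgf6, a muscle-associated ligand gene, had signals of 37.9, 31.8, 15.3 and 4.76. Fgf11, an intracellular FGF homologue gene, had 14.4, 19.2, 3.56 and 2.66, and Fgf16 had 18.7, 14.1, 5.99 and 7.93. These genes were singled out after their values were seen, and such signals have no stated limit against background. Klb, which encodes the co-receptor for FGF21, had 14.3, 20.7, 16.8 and 4.05, below the filter signal on all 4 arrays, as was Fgf21 itself.

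Among heparan sulfate core protein genes, singled out after their values were seen, Sdc2, a syndecan gene, had signals of 1932, 243, 2596 and 1278, with Apex replicate 2 the lowest. Sdc1 had 1953, 1670, 851 and 2595, with both extremes among the VEGFD arrays. Hspg2, which encodes perlecan of the basement membrane, had 321, 357, 259 and 390. None of these 3 genes passed in limma, and the groups overlapped for each.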
